A study of Rattus norvegicus with 2 samples.

Results

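The receptors through which vasoconstrictors act on vascular smooth muscle were examined in A7r5 cells, an established line derived from embryonic rat aorta. The set comprised 10 rat genes: the angiotensin receptors Agtr1a and Agtr2, the endothelin receptors Ednra and Ednrb, the vasopressin receptor Avpr1a, the alpha-1 adrenergic receptors Adra1a, Adra1b and Adra1d, and the serotonin receptors Htr2a and Htr2b. Every probe set annotated to one of these symbols and to no other gene was taken, whatever its brightness. This gave 13 probe sets for 8 genes, of 12783 probe sets for 10411 genes with such an annotation. Ednra and Ednrb were not analysed here.

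The first pool of cells had been exposed for 72 hours to an adenoviral vector for the human cDNA of GLUT1, a facilitative glucose transporter, and these are called GLUT1 cells. The other pool had been exposed to an empty vector for the same time, and these are called empty virus cells. The samples were assigned by their titles and source names, while the description field of both names GLUT1 over-expression, so the sign of each ratio rests on the titles. Both were infected at a multiplicity of 10, where a multiplicity of 1 was 100 particles per cell, and both sets of arrayed cells were kept in 5.5 mM glucose. RNA of 3 days was pooled into 1 sample per condition and each pool was read on 1 array, so no value below has a replicate check and no test between the conditions was possible. No uninfected cells were analysed here, so the levels are those of infected cells of 1 line.

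Contraction of smooth muscle by circulating and nerve-derived agents begins at G protein-coupled receptors. Most of the receptors in the set couple to the Gq family, which activates phospholipase C beta, releases calcium through inositol trisphosphate receptors and activates protein kinase C. The type 2 angiotensin receptor, encoded by Agtr2, is the exception: it is most abundant in fetal tissue and in general opposes the type 1 receptor. A7r5 cells have long been used to study calcium signals evoked by vasopressin.

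On both arrays the deposited values were linear intensities in arbitrary units, with a median of 509 on the GLUT1 array and 508 on the empty virus array. Values of both arrays at or below 175, the 25th percentile, were set to that floor before log2 was taken. Smooth muscle identity was checked on 10 markers, of which 8 had a mean log2 value at or above the median of all probe sets. This level is called measured here. Over all 10411 genes 58.7% were measured, so the count alone says little about identity. Acta2, smooth muscle actin, was read at 16687 in GLUT1 cells and 16303 in empty virus cells, while Myh11, smooth muscle myosin heavy chain, lay under the measured level at 228 and 227. None of 4 endothelial, 4 leukocyte and 3 neuronal or glial marker genes was measured. The summed endothelial markers were 347 in GLUT1 cells and 394 in empty virus cells. The leukocyte markers summed to 794 and 897, and the neuronal and glial markers to 453 and 574. The rat probe set of Slc2a1, the gene of GLUT1, gave 3121 in GLUT1 cells and 2902 in empty virus cells, a log2 ratio of 0.11. The virus carried the human cDNA, so this probe set does not check the labels.

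Of the 8 receptor genes, 1 was detectable on both arrays, where detectable meant an intensity at or above the array's median in the gene's brightest probe set. Over all 10411 genes, 57.4% met this rule. At the 25th percentile 5 receptor genes and 79.0% of all genes were detectable, and at the 75th percentile 0 receptor genes and 30.0% of all genes. The detectable gene was Avpr1a, which encodes the V1a vasopressin receptor. Htr2a, which encodes the 5-HT2A serotonin receptor, reached the median on the empty virus array alone, and the other 6 genes reached it on neither array. No detection calls were used here, so a dim value is not a call of absence.

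The dim values were set beside 28 genes of unrelated tissues, such as pituitary and pancreatic hormones and digestive enzymes, read by 31 probe sets. These had a median intensity of 168 in GLUT1 cells and 156 in empty virus cells, with a range of -54 to 691 and of -15 to 798. Their 95th percentile was 535.5 on the GLUT1 array and 603.5 on the empty virus array. Avpr1a exceeded that level on both arrays, whereas every other receptor probe set lay under it on both. At that level 54.4% of all genes were detectable. The values of the other 7 receptor genes lay within the range of the unrelated-tissue genes.

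**Figure D1:**
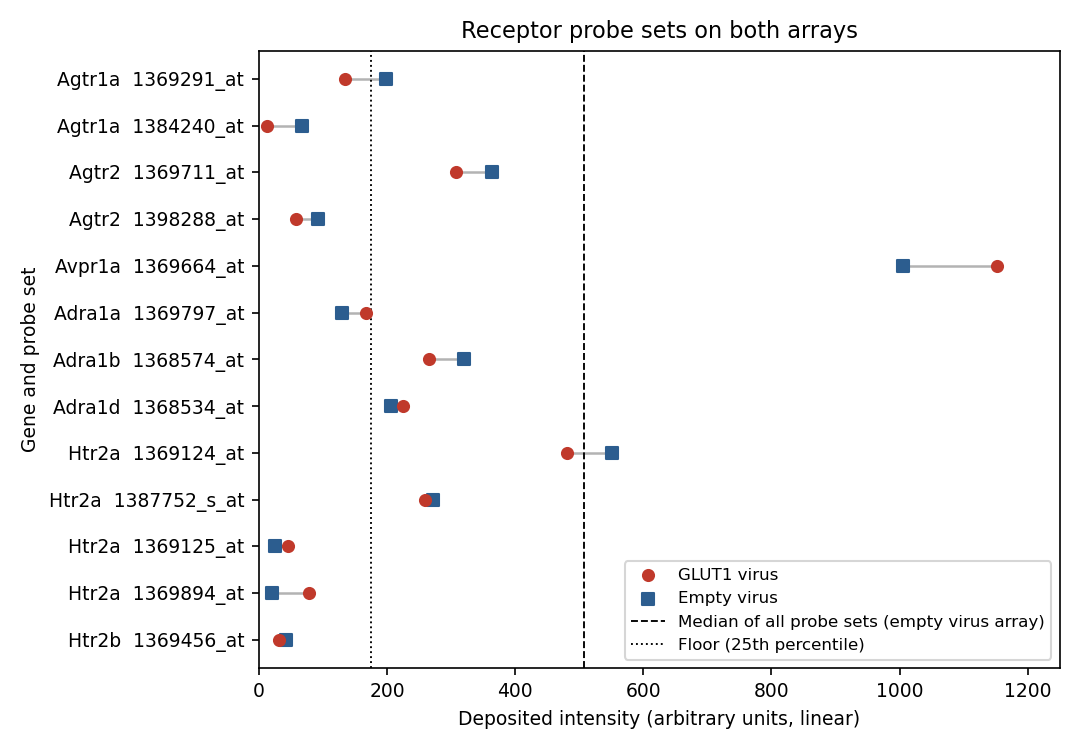
Intensity (arbitrary units, linear axis) of the 13 receptor probe sets, with a circle for the GLUT1 array and a square for the empty virus array and 1 pooled sample behind each point. Avpr1a, at 1152 and 1006, is the one probe set right of the dashed median line on both arrays, and the best Htr2a probe set straddles it at 481 and 552.

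The vasopressin receptor was read by probe set 1369664_at. Avpr1a had an intensity of 1152 in GLUT1 cells, against 1006 in empty virus cells. The GLUT1 value was brighter than 68.9% of the array's probe sets and the empty virus value than 65.5%. Avpr1a was thus the higher in GLUT1 cells, by 1.15-fold, a log2 ratio of 0.20. In pooled RNA, a change in the number of cells that express a gene and a change in RNA per cell cannot be told apart. To judge such a difference, the spread of the log2 ratios was taken over the 250 probe sets on either side in brightness. It was a median absolute deviation scaled to an SD. Only probe sets above the floor on both arrays entered, which can narrow the spread for dim genes. The spread holds array noise and real differences together. This local spread was 0.14 at the brightness of Avpr1a, so its log2 ratio was 1.41 times the local spread.

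The serotonin receptor Htr2a was read by 4 probe sets, which did not point one way. Probe set 1369124_at gave 481 in GLUT1 cells and 552 in empty virus cells, a log2 ratio of -0.20, which was 0.85 times the local spread of 0.23. Probe set 1387752_s_at, whose suffix marks probes that can be shared between transcripts, gave 259 in GLUT1 cells and 272 in empty virus cells, a log2 ratio of -0.07. Both of these were lower in GLUT1 cells by less than the local spread. The remaining Htr2a probe sets lay under the floor on both arrays, 1369125_at at 45 in GLUT1 cells and 26 in empty virus cells, and 1369894_at at 79 and 21. Both were the higher in GLUT1 cells in intensity, and neither has an interpretable ratio. In intensity units their differences were 0.48 and 1.35 times the local spread of differences among probe sets of like brightness. All 4 are annotated to the same RefSeq transcript, so they disagreed on whether this transcript stood above the floor.

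Htr2b, which encodes the 5-HT2B receptor, was dim. Its probe set 1369456_at gave 32 in GLUT1 cells and 43 in empty virus cells, both under the floor, and 5.84% and 7.36% of probe sets were dimmer. No ratio was computed for Htr2b.

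The angiotensin receptors had 2 probe sets each. For Agtr1a, which encodes the type 1a receptor that mediates the pressor effect of angiotensin II, probe set 1369291_at gave 134 in GLUT1 cells and 199 in empty virus cells. The GLUT1 value lay under the floor, so the log2 ratio was -0.19 or lower, and with the floor set at the 10th percentile it was -0.57. The second Agtr1a probe set, 1384240_at, gave 13 in GLUT1 cells and 68 in empty virus cells, both under the floor. Agtr1a was thus lower in GLUT1 cells in both probe sets. In intensity units the scaled differences of -64.9 and -55.0 were 1.21 and 1.37 times the local spread of differences among probe sets of like brightness. Agtr1b, the close paralog of Agtr1a in rodents, is not in the set and was chosen after its value was seen. It gave 96 in GLUT1 cells and 104 in empty virus cells. Whether probes of one paralog also bind the other was not tested.

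For Agtr2, probe set 1369711_at gave 307 in GLUT1 cells and 364 in empty virus cells, a log2 ratio of -0.24, which was 0.92 times the local spread of 0.27. Probe set 1398288_at gave 58 in GLUT1 cells and 92 in empty virus cells, under the floor on both arrays. Both Agtr2 probe sets were lower in GLUT1 cells, by less than 1 local spread each.

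The alpha-1 adrenergic receptors, which mediate constriction by noradrenaline, had 1 probe set each. Adra1b gave 266 in GLUT1 cells and 321 in empty virus cells, a log2 ratio of -0.27, which was 0.89 times the local spread of 0.30. Adra1d gave 225 in GLUT1 cells and 206 in empty virus cells, a log2 ratio of 0.13, which was 0.50 times the local spread of 0.26. Adra1a gave 167 in GLUT1 cells and 130 in empty virus cells, both under the floor. In intensity Adra1b was the lower and Adra1a and Adra1d the higher in GLUT1 cells, each by less than its local spread. Adra1a has no interpretable ratio, and signs of differences this small do not set the subtypes apart.

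**Figure D2:**
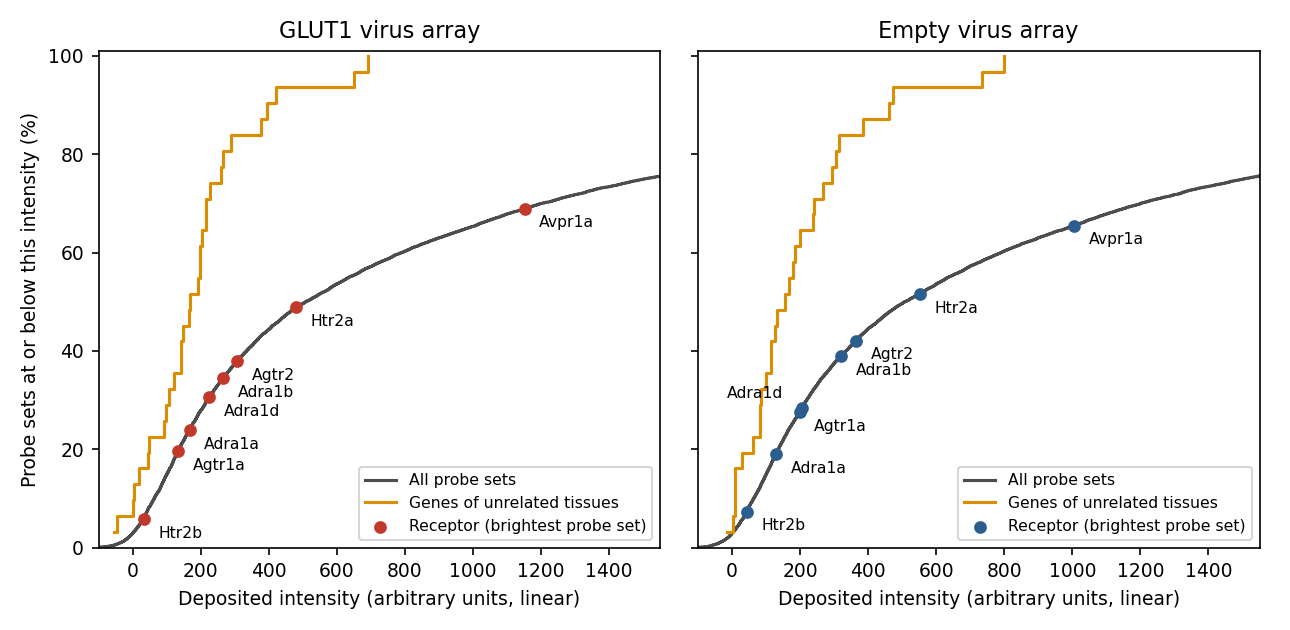
Share of probe sets (%) at or below each intensity (arbitrary units) on the GLUT1 array and the empty virus array, for all probe sets and for 31 probe sets of unrelated-tissue genes, with the brightest probe set of each of the 8 receptor genes marked on the curve of all probe sets. Avpr1a alone lies past the 95th percentile of the unrelated-tissue genes, 535.5 on the GLUT1 array and 603.5 on the empty virus array.

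No receptor gene differed by 2-fold, which Adra1a and Htr2b, floored on both arrays, could not do in either direction. Agtr1a, Adra1d and Adra1b, at 199, 206 and 321 in empty virus cells, lay less than 2-fold above the floor of 175. They could therefore not be read as 2-fold lower in GLUT1 cells. Among the 8713 genes above the floor on at least 1 array, 0.103% differed by 2-fold in either direction, 0.0574% higher and 0.0459% lower in GLUT1 cells, so an absence of such genes among 8 is not a result about the receptors. Of the 8 genes, 6 had a brightest probe set above the floor on at least 1 array. In these, 2 log2 ratios were above 0, those of Avpr1a and Adra1d, and 4 were below 0, those of Agtr1a, Agtr2, Adra1b and Htr2a. The log2 ratios of the 5 genes above the floor on both arrays ran from -0.27 to 0.20, and that of Agtr1a was -0.19 or lower. With Agtr1a entered at this bound the median of the 6 was -0.19. The median over the 8713 genes was 0.01 with an SD of 0.20, and over the 2599 of them under the measured level it was 0.01 with an SD of 0.30. Keeping the 2 genes at the floor with a ratio of 0 gave a median of -0.09, and averaging all probe sets of a gene gave -0.08, so the receptor median moved by more than 1.5 times with the handling of dim probe sets.

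Counted by probe set, 5 were brighter and 8 dimmer in GLUT1 cells. In intensity, 9 of the 13 differed by less than 1 local spread, as did 67.5% of all probe sets on the arrays. The largest of the 13 differences was that of Avpr1a, at 1.38 times the local spread, and 18.2% of all probe sets differed by more.

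**Figure D3:**
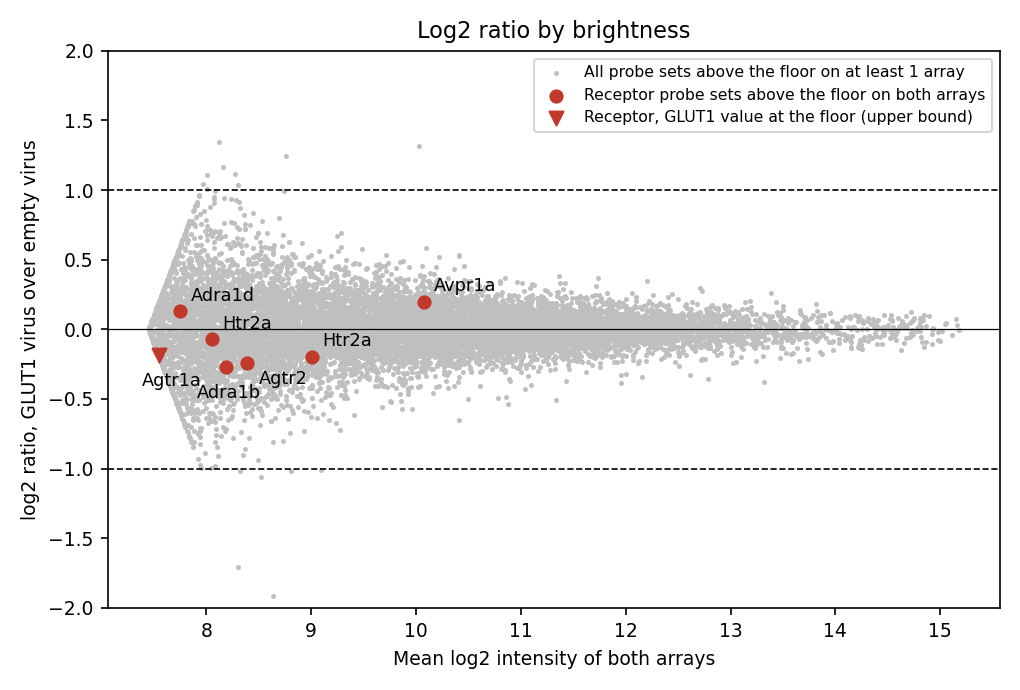
Log2 ratio of GLUT1 over empty virus against the mean log2 intensity of both arrays, with all probe sets above the floor on at least 1 array as grey points and receptor probe sets in red, as circles for the 6 above the floor on both arrays and as a triangle for Agtr1a, whose -0.19 is an upper bound. The circles run from -0.27 to 0.20, inside the cloud of probe sets of like brightness and inside the dashed lines at 2-fold.

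Genes that act with these receptors were followed through 4 lists, of ligands and their converting enzymes, other vasoactive receptors, G proteins with phospholipase C, inositol trisphosphate receptors and protein kinase C, and receptor desensitisation. Of 91 genes listed, 81 were on the arrays and 35 were measured, where 58.7% of all genes were. Of the 35, 19 were higher and 16 lower in GLUT1 cells, with log2 ratios from -0.31 to 0.25 and a median of 0.03. The shares of all measured genes that were higher and lower are not given here, so the splits within the lists have no background. None of the 35 passed 2-fold in either direction, where 0.0164% of 6114 measured genes did. Without the brightness filter the log2 ratios ran from -0.64 to 0.94, still with none at 2-fold. These ends were Lnpep, an aminopeptidase, at 241 in GLUT1 cells and 376 in empty virus cells, and Arrb2, or beta-arrestin 2, at 373 and 195, both chosen after their values were seen. The median over the measured genes was 0.01 with an SD of 0.14.

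Among ligands and converting enzymes 4 of 9 were measured. Edn1, the precursor of endothelin-1, gave 668 in GLUT1 cells and 658 in empty virus cells, a log2 ratio of 0.02. Ece1, which cleaves big endothelin to its active form, gave 2402 and 2188, a log2 ratio of 0.14. Mme, or neprilysin, which degrades vasoactive peptides, gave 3081 in GLUT1 cells and 3356 in empty virus cells, a log2 ratio of -0.12. Enpep, which cleaves angiotensin II, gave 484 and 553, a log2 ratio of -0.19. A second Enpep probe set, at 21 in GLUT1 cells and 10 in empty virus cells, lay under the floor on both arrays. Edn1 and Enpep lay within the range of the unrelated-tissue genes, which reached 691 in GLUT1 cells and 798 in empty virus cells. Ece1 and Mme lay above it. Agt, Avp and Edn2, the precursors of angiotensin, vasopressin and endothelin-2, lay under the measured level and are named after their values were seen. They gave 236, 314 and 274 in GLUT1 cells and 195, 251 and 252 in empty virus cells.

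Of the 37 other vasoactive receptors and receptor components on the arrays, 10 were measured, 2 higher and 8 lower in GLUT1 cells, with a median log2 ratio of -0.07. The highest were S1pr2, a sphingosine 1-phosphate receptor, at 0.13, and F2r, the thrombin receptor PAR1, at 0.05. A second, dimmer S1pr2 probe set gave 291 in GLUT1 cells and 289 in empty virus cells, a log2 ratio of 0.01. F2r was read at 5419 in GLUT1 cells and 5228 in empty virus cells. The lowest were Adrb3, the beta-3 adrenergic receptor, at -0.20, and Npr2, the receptor of C-type natriuretic peptide, at -0.19. Npr2 differed by 1.05 times the local spread, and the other measured genes of this list by less than the local spread. Tbxa2r, the thromboxane receptor, which also drives constriction and was chosen after its value was seen, gave 2169 in GLUT1 cells and 2271 in empty virus cells, a log2 ratio of -0.06. All 10 were at or above the median on both arrays. The rule for measured genes nearly ensures this, as 58.7% of all genes were measured and 57.4% detectable on both arrays. Adrb3 (509 in GLUT1 and 587 in empty virus cells) and Npr2 (558 and 635) lay within the range of the unrelated-tissue genes. So did the serotonin receptors Htr1b (650 and 682) and Htr2c (566 and 614), chosen after their values were seen. Ptger3, a prostaglandin receptor chosen likewise, lay within it on the empty virus array alone, at 771. The rest lay above it.

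In the list of G proteins, phospholipases C, inositol trisphosphate receptors and protein kinases C, which also holds Gs, Gi and beta subunits, 16 of 22 genes were measured, 11 higher and 5 lower, with a median log2 ratio of 0.06. Prkca, protein kinase C alpha, gave 765 in GLUT1 cells and 645 in empty virus cells, a log2 ratio of 0.25. Prkce, protein kinase C epsilon, gave 817 and 1013, a log2 ratio of -0.31 and the lowest of all 35. The kinases thus differed in sign, Prkca at 1.41 and Prkce at 1.83 times the local spread. Gna15, a Gq family subunit, had a log2 ratio of 0.23 and Plcb4, a phospholipase C beta, of -0.09. A second Plcb4 probe set, at 118 in GLUT1 cells and 86 in empty virus cells, lay under the floor on both arrays. Prkca and Gna15 lay within the range of the unrelated-tissue genes on the empty virus array alone, at 645 and 662. Gnaq itself lay under the measured level at 380 in GLUT1 cells and 336 in empty virus cells, and was chosen after its value was seen.

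Receptor desensitisation had 5 of 13 genes measured, 4 higher and 1 lower in GLUT1 cells, with a median log2 ratio of 0.22. The receptor kinases Grk5 and Grk2, which phosphorylate activated receptors, gave 718 and 758 in GLUT1 cells and 603 and 645 in empty virus cells. Their log2 ratios of 0.25 and 0.23 were 1.42 and 1.33 times the local spread. Both lay within the range of the unrelated-tissue genes on the empty virus array alone. Grk6 had a log2 ratio of 0.03 and Mtus1, which encodes a protein that binds the type 2 angiotensin receptor, of -0.01. A second, dimmer Grk6 probe set had a log2 ratio of 0.12. Rgs3, chosen after its value was seen, had a log2 ratio of 0.22, or 1.73 local spreads. Arrb2, which uncouples activated receptors from their G proteins, lay under the measured level with the largest log2 ratio of the 4 lists, 0.94, or 2.91 local spreads. Its 1 probe set, at 373 in GLUT1 cells and 195 in empty virus cells, lay within the range of the unrelated-tissue genes. The share of all probe sets that differed by more is not given here. Rgs2 and Rgs5, which speed the shutdown of Gq signalling, lay under the measured level. Rgs2 was read at 221 in GLUT1 cells and 299 in empty virus cells, and Rgs5 at 117 and 150. A second Rgs2 probe set, at 51 in GLUT1 cells and 63 in empty virus cells, lay under the floor on both arrays. Agtrap, which promotes internalisation of the type 1 angiotensin receptor, gave 296 in GLUT1 cells and 312 in empty virus cells.

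**Figure D4:**
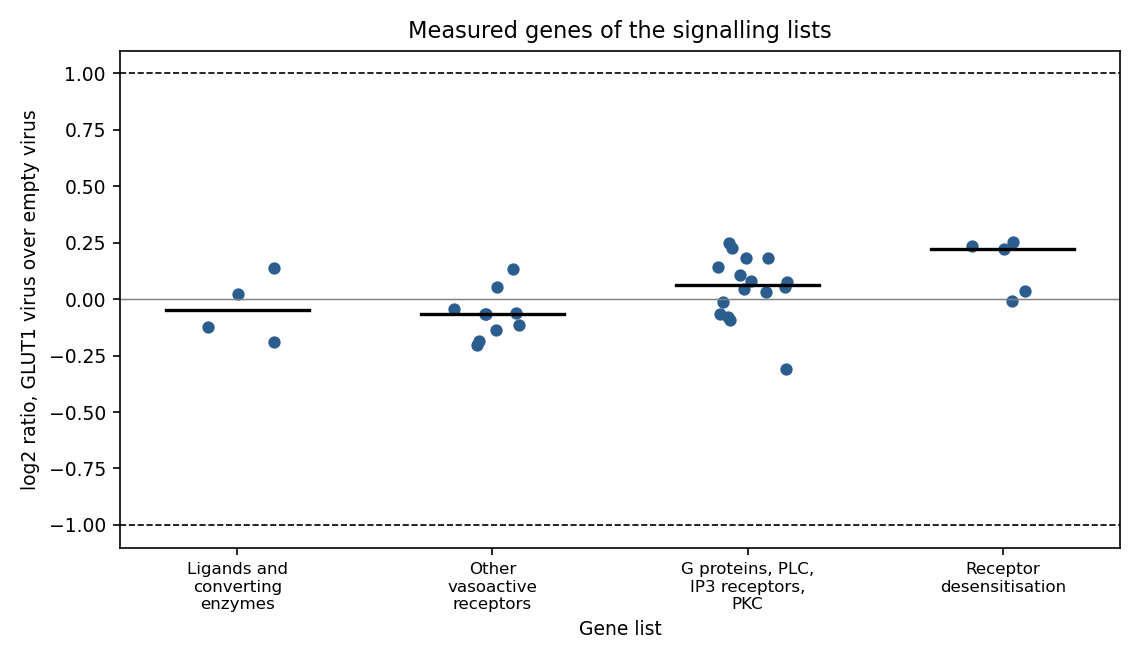
Log2 ratio of GLUT1 over empty virus for the 35 measured genes of 4 lists, with 1 point per gene, black bars at the list medians and dashed lines at 2-fold. All points lie between -0.31 and 0.25, and the list medians between -0.07 and 0.22.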

How the data were processed

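Biotin-labelled cRNA from pooled total RNA was hybridised to 1 array per condition, per the labels' protocols. The authors deposited 1 linear intensity per probe set. How it was summarised, background-corrected and normalized was not given in the sources used here. Quartiles of both arrays were nearly equal as deposited. Genes came from the platform annotation, with symbols updated by gene ID in a rat gene table (GRCr8), which held 12748 of 12783 IDs.

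The GLUT1 array was scaled to a median log2 ratio of 0 over brighter probe sets, a shift of 0.0014. Values were floored at 175 (25th percentile) and log2 taken. A gene was represented by its brightest probe set, and measured when its mean log2 value reached 8.99. All receptor genes were named. A further list of signalling genes is not reported here. From each list the 2 highest and 2 lowest measured genes were named, or all where fewer than 5 were measured, with Rgs2, Rgs5, Agtrap, Edn1 and Ece1. Other genes named are marked as chosen after their values were seen. The members and lists were chosen with earlier results of these data known. With 1 array per group no p-value was computed, and precision is limited by the number of arrays. The scaling, the log2 ratios of bright probe sets and the local spread were tested on simulated data. The floor, the rule for detectable genes and the ratios of dim probe sets were not. Python 3.11.15 was used.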

Additional observations from a re-analysis of the deposited data

How the results depend on the processing

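No paired analysis was possible because there is 1 array per condition. The receptor genes detectable on both arrays numbered 5 at the 25th percentile, where 79.0% of all genes were detectable, and 0 at the 75th, where 30.0% were, against 1 at the median. The count stayed at 1 with the level of unrelated-tissue genes and with averaged probe sets. No receptor gene passed 2-fold under the scaling, floor, filter and averaging alternatives tried. None passed 1.5-fold under the settings of the report, where Adra1a and Htr2b were floored on both arrays. Agtr1a and Adra1d, at 199 and 206 in empty virus cells, lay less than 1.5-fold above the floor. They could not pass in the lower direction. Over all measured genes the 2-fold count of 1 higher and 0 lower became 4 and 4 at 1.5-fold, 5 and 4 with no brightness filter, 0 higher when the brightness filter stood at the 75th percentile, and 1 lower when the floor stood at the 40th. The receptor median ran from -0.20 with a floor at the 10th percentile to -0.12 with a floor at the 40th, which leaves 3 genes, and -0.08 with averaged probe sets. Keeping floored genes, an alternative chosen after seeing the data, gave -0.09. The deposited values were already alike in distribution, so the scaling alternatives say little about stability.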
